A study of Mus musculus with 35 samples.

Results

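Cholesterol and fatty acid synthesis genes were followed by symbol through 4 tables of RNA-Seq from mouse cardiac fibroblasts (CFs) and mouse hearts. The list holds 31 of the 55487 genes in the tables: 5 regulators, 1 sterol carrier, 6 enzymes of the mevalonate arm, 11 of the steps from squalene to sterol, and 8 enzymes of fatty acid synthesis and desaturation. All 31 were found in every table and passed the filter on low counts in every fit. IAMP is a micropeptide encoded by 4930523C07Rik. The CFs came from adult mice and were plated on collagen in high glucose medium with 10% fetal bovine serum, and received a control siRNA (si-NC) or 1 of 2 siRNAs against IAMP (si-IAMP-1, si-IAMP-2). They were left untreated, given IL-17 for 24 h after 24 h of siRNA, or given TGF-β for a time the labels do not state, with 3 libraries for each siRNA in each state. The 8 hearts were those of 8-week-old C57BL/6 mice, 4 homozygous for a CRISPR-made frameshift in IAMP (KO) and 4 heterozygous (Het), so the controls also carried a mutated allele. The labels do not say whether libraries of a group came from separate cell preparations, and the p-values of CFs measure only the spread between these libraries. A CF library held 104139670 to 119232309 estimated counts, and a heart 23497027 to 23857313 counts.

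Cholesterol is made from acetyl-CoA by way of mevalonate, isoprenoids and squalene, and long-chain fatty acids by carboxylation, chain building, elongation and desaturation. Genes of both pathways are transcribed under the SREBP proteins, encoded by Srebf1 and Srebf2. SREBPs are made as membrane precursors that SCAP escorts from the endoplasmic reticulum to the Golgi for cleavage when sterols are scarce, while the INSIG proteins hold SCAP back when sterols are plentiful. In culture the same genes respond to serum lipoproteins, and adult heart muscle takes up most of its fatty acids rather than making them.

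SREBPs bind a sterol regulatory element (SRE), often beside a CCAAT box bound by NF-Y. RefSeq windows of 250 bases before to 50 after each start site (GRCm38.p6) were matched for 24 of the 31 members with 32 promoters, and 32851 windows were searched in all, on both strands. TCACNCCAC, taken here as an SRE core, stood in 1 of 32 windows (3.12%) and in 1.24% of all windows. CCAAT stood in 21 of 32 (65.6%) against 37.4% of all, the GC box GGGCGG in 24 of 32 (75.0%) against 35.7%, and the E-box CACGTG in 6 of 32 (18.8%) against 7.15%. A match describes letters in the window and is not a binding site. The 4 members below are shown because they carried the largest or the most discordant siRNA effects. Capitals mark the CCAAT box, which reads ATTGG when it lies on the opposite strand, and the SRE core, and each stretch stops before the first start site annotated for the gene. In the printed stretches Insig1 (chr5:28071162-28071362, plus strand) had 1 CCAAT match, Hmgcs1 (chr13:119690101-119690350, plus strand) had 3 and the SRE core, Mvd (chr8:122443423-122443672, minus strand) had 2, and Hsd17b7 (chr1:169969242-169969455, minus strand) had 2. The whole windows of Hmgcs1 and Hsd17b7 held 4 and 3 CCAAT matches, the last of each lying beyond the printed stretch.
Insig1: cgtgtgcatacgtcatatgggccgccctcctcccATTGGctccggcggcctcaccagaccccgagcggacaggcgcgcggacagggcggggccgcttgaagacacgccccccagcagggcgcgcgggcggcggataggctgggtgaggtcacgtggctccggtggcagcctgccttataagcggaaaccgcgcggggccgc
Hmgcs1: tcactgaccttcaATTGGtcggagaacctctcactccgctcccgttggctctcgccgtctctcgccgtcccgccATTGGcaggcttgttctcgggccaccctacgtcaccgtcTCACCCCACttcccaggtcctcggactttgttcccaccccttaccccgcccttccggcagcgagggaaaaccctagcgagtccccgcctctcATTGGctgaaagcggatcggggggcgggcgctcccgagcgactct
Mvd: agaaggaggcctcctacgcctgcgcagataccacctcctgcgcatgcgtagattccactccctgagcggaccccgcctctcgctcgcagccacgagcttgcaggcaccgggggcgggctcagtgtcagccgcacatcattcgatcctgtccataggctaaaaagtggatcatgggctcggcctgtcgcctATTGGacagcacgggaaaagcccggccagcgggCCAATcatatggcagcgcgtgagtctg
Hsd17b7: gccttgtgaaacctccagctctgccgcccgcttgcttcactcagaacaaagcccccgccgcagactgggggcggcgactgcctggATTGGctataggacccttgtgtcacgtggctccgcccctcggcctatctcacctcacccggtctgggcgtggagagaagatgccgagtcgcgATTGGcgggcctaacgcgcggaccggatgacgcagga

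The target gene was measured first. In CPM, each count divided by the normalized library size and scaled to a common depth, 4930523C07Rik stood at 22.0, 22.7 and 25.7 in si-NC, 2.52, 3.51 and 2.98 in si-IAMP-1 and 1.77, 1.87 and 1.89 in si-IAMP-2. It stood at 18.6, 20.8 and 16.8 in si-NC with IL-17, at 2.37, 2.90 and 2.56 in si-IAMP-1 and at 1.88, 1.71 and 1.68 in si-IAMP-2. With TGF-β the levels were 19.1, 19.5 and 22.6, then 4.58, 4.01 and 4.42, then 2.88, 3.18 and 3.72. All 18 knockdown libraries lay below all 9 controls. In hearts the transcript stood at 15.9, 16.5, 18.8 and 17.0 in Het and 15.4, 17.3, 15.2 and 16.3 in KO, and a frameshift need not lower RNA, so the level does not check the genotype.

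Fibroblast markers identified the cells. The 8 fibroblast markers summed to 9193 CPM in si-NC, led by Col1a1, while 6 cardiomyocyte markers summed to 94.6, of which Tnnt2 made up 93.4 and Myh6 was at 0. Cardiomyocyte markers summed to 45.3 in si-IAMP-1 and 30.7 in si-IAMP-2, and to 5.63 in si-NC with TGF-β. Endothelial markers summed to 57.9, macrophage markers to 56.0 and pericyte and smooth muscle markers to 6.03 in si-NC. The 8 adipocyte markers, led by Fabp4, summed to 8.67 in si-NC, 10.7 in si-IAMP-1 and 12.2 in si-IAMP-2. With IL-17 they summed to 9.01, 11.5 and 12.5, and with TGF-β to 9.97, 9.59 and 10.0. The 1 adipocyte marker tested was called higher with both siRNAs in untreated and IL-17 cells, and with neither in the TGF-β table. The part of adipocyte markers in the lipid genes was not tested. In Het hearts cardiomyocyte markers summed to 40092 CPM, led by Myh6. Liver transcripts, which CFs should lack, stood apart in 5 CF libraries: 4 hepatocyte markers led by Alb summed to 60.7 CPM in si-NC replicate 3, 77.6 and 51.7 in si-NC with IL-17 replicates 1 and 3, 23.7 in si-IAMP-1 with TGF-β replicate 2 and 92.8 in si-IAMP-2 with TGF-β replicate 3. The other CF libraries reached at most 1.45. Since the liver expresses many genes of lipid synthesis, the counts by adjusted p over all 31 members are given below with and without these 5 libraries, while counts by role, of other lists and at a fold threshold use all libraries.

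Per kilobase of exon, desaturases led the list in CFs. Scd2, a stearoyl-CoA desaturase, stood at 128.0 ± 1.70 CPM per kb in si-NC (SD, n = 3), followed by Fads2, the Δ6 desaturase, at 77.3 ± 1.84 and Scd1 at 74.2 ± 1.82, which did not differ by more than their summed spread. Acly, which makes cytosolic acetyl-CoA, followed at 45.0 ± 1.10 and Cyp51, the lanosterol demethylase, at 34.6 ± 0.811. Dhcr7, the last reductase of one route to cholesterol, at 2.14 ± 0.0163 and the sterol reductase Tm7sf2 at 1.09 ± 0.186 closed the order. In Het hearts the order was another. Insig2 led at 7.07 ± 2.43 CPM per kb (SD, n = 4) beside Srebf1 at 7.01 ± 0.782, and squalene epoxidase (Sqle) at 0.157 ± 0.00875 and the elongase Elovl6 at 0.0669 ± 0.0176 were last. The levels of the 31 genes summed to 3485.1 to 3521.4 CPM in si-NC and to 356.65 to 373.68 CPM in Het hearts. These sums are not on one scale, as they come from estimated counts in one fit and counts in another. Mitochondrial genes held 23.98% to 26.74% of the counts in Het hearts, against 2.52% to 2.63% in si-NC. Scd1 and Scd2 are close relatives, and reads shared between them could have been split in either direction by the authors' quantification. In bulk RNA, a change in level and a change in the share of a cell type cannot be told apart.

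In untreated CFs si-IAMP-2 moved most members of the list, mostly upward, while the calls with si-IAMP-1 were about as frequent as among all genes. A gene counted as risen or fallen when its adjusted p did not exceed 0.05 (edgeR quasi-likelihood test, Benjamini-Hochberg over all genes tested). With si-IAMP-1, 8 of 31 members rose and 5 fell, beside 19.5% of 19669 genes that rose and 20.4% that fell. With si-IAMP-2, 17 rose and 4 fell, beside 24.4% and 25% of all genes. The median log2 fold change was -0.003 over the members and -0.016 over all genes with si-IAMP-1, and 0.15 and -0.02 with si-IAMP-2. Adding the study's fold threshold of at least 1 on the log2 scale left 1 member higher and 0 lower with si-IAMP-1 (2.15% and 2.61% of all genes). With si-IAMP-2 it left 2 higher and 1 lower (3.42% and 7.23%). Most of the calls were therefore small. Insig1, Fdps, Msmo1, Dhcr7, Acaca, Fads1 and Fads2 rose with both siRNAs, Srebf2 and Cyp51 fell with both, and Hsd17b7, Sc5d and Acly were called in opposite directions. Both comparisons share the si-NC libraries, so that a call with both siRNAs is not independent evidence. The share of all genes called with both siRNAs, in the same or in opposite directions, was not counted. In the same cells all 10 genes of a proliferation list fell with each siRNA (median -0.72 and -1.47), their summed level being 1315 CPM in si-NC, 777 in si-IAMP-1 and 502 in si-IAMP-2, led by Mki67 in si-NC. Macrophage markers summed to 56.0 CPM in si-NC, 58.1 in si-IAMP-1 and 73.9 in si-IAMP-2, with 1 and 2 of 5 genes higher. Endothelial markers summed to 57.9, 51.1 and 59.1, with 2 of 5 lower with si-IAMP-1, and 3 lower and 1 higher with si-IAMP-2. Fibroblast markers summed to 9193, 11983 and 8653, with 4 of 8 higher and 2 lower, then 2 higher and 4 lower. Sex-linked genes, led by Ddx3y, summed to 249, 237 and 307, with 1 of 5 lower with si-IAMP-1, and 3 higher with si-IAMP-2. The part of these lists in the lipid genes was not tested. Without the si-NC library that held liver transcripts, 8 rose and 5 fell with si-IAMP-1, and 18 rose and 4 fell with si-IAMP-2.

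**Figure D1:**
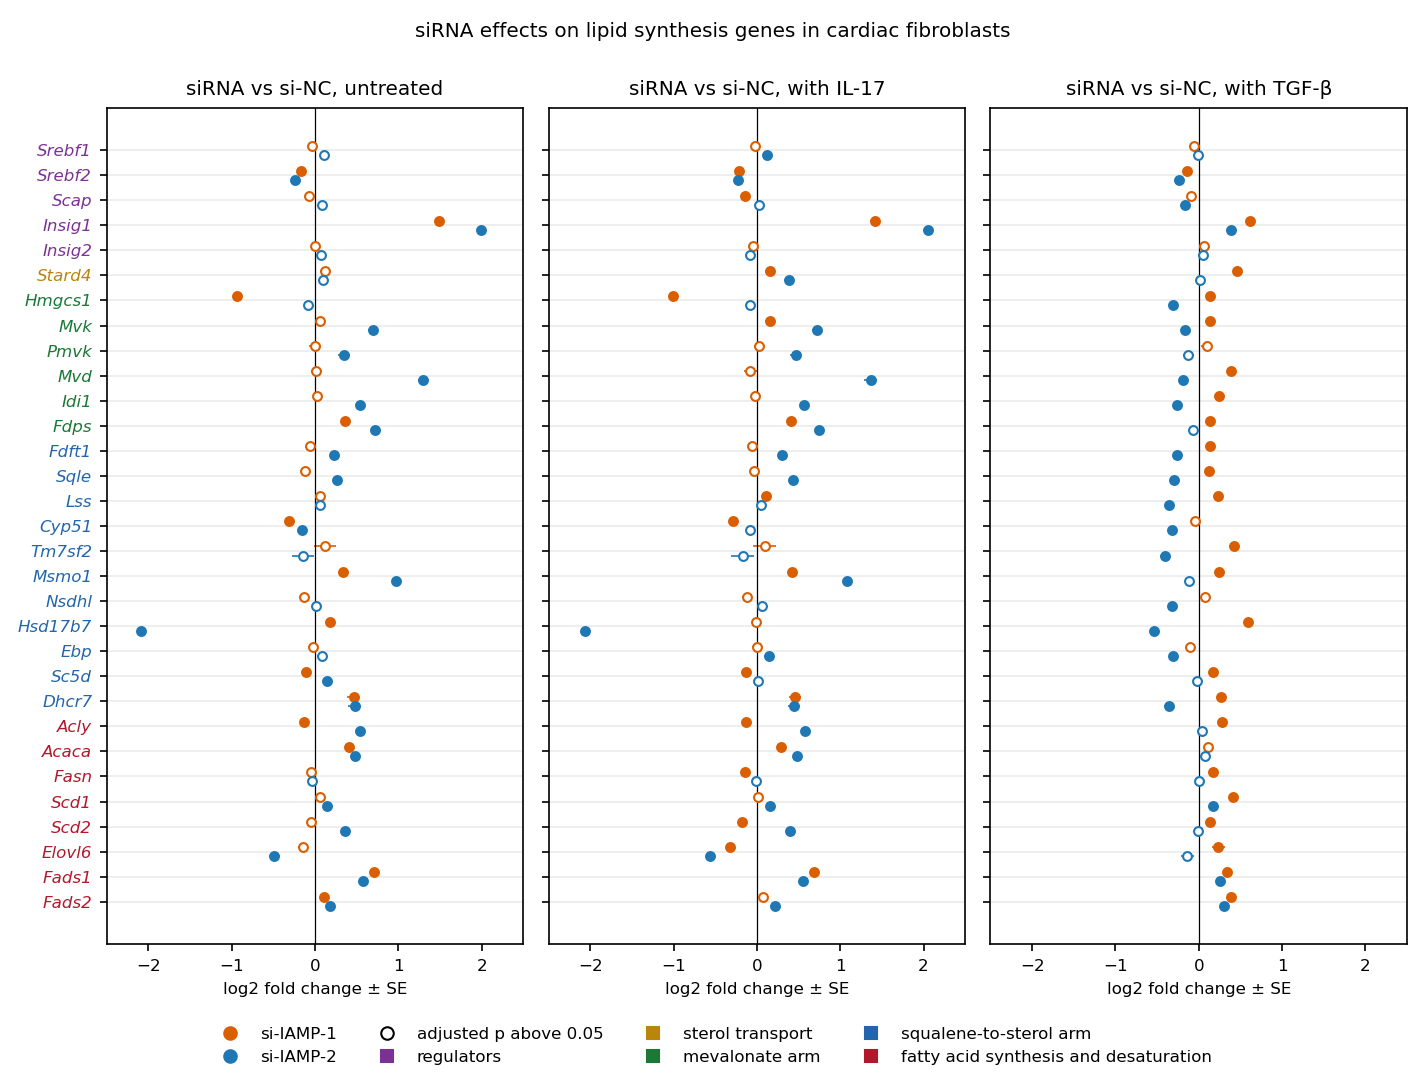
Log2 fold change (± SE) of each of the 31 genes for si-IAMP-1 and si-IAMP-2 against si-NC in untreated CFs and with IL-17 or TGF-β; filled points have an adjusted p of at most 0.05. Insig1 stands farthest to the right without TGF-β, Hsd17b7 farthest to the left with si-IAMP-2, and with TGF-β the blue points lie mostly left and the orange points mostly right of 0.

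With IL-17 the same comparisons gave 9 members higher and 9 lower with si-IAMP-1, beside 20.3% and 21.9% of 19906 genes. With si-IAMP-2, 19 rose and 3 fell, beside 25% and 25.6%. The medians were -0.02 and 0.22 over the members, against -0.003 and -0.02 over all genes. At the study's 1.5-fold threshold 2 rose and 1 fell with si-IAMP-1 (5.58% and 7.97% of all genes), and 5 rose and 1 fell with si-IAMP-2 (8.06% and 13.7%). The 5 were Insig1, Mvd, Msmo1, Fdps and Mvk. Without the libraries that held liver transcripts, which left 1 control library, 6 rose and 6 fell with si-IAMP-1, and 17 rose and 3 fell with si-IAMP-2. Without si-IAMP-2 with IL-17 replicate 2, 5 members fell rather than 3. With single libraries left out, 6 to 8 members rose and 7 to 9 fell with si-IAMP-1. All 10 proliferation genes again fell with each siRNA. Macrophage markers summed to 54.1 CPM in si-NC, 64.3 in si-IAMP-1 and 77.1 in si-IAMP-2 with IL-17, with 2 of 5 genes higher with each. Endothelial markers summed to 53.5, 44.9 and 57.4, with 3 of 5 lower with si-IAMP-1, and 2 lower and 1 higher with si-IAMP-2. Fibroblast markers summed to 9026, 11218 and 8738, with 2 of 8 higher and 3 lower, then 3 higher and 5 lower. Cardiomyocyte markers summed to 72.5, 34.1 and 24.1. Sex-linked genes summed to 253, 245 and 313, with 0 of 4 tested genes called, then 3 higher. The part of these lists in the lipid genes was not tested.

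With TGF-β the siRNAs parted. With si-IAMP-1, 22 of 31 members rose and 1 fell, beside 11.7% and 11.4% of 19891 genes, while with si-IAMP-2 4 rose and 15 fell, beside 15.1% and 14.8%. The medians were 0.17 and -0.14, against 0.000297 and 0.01 over all genes. The effects were small: 2 members rose and 0 fell at 1.5-fold with si-IAMP-1 (2.45% and 1.91% of all genes), and 0 rose and 0 fell with si-IAMP-2 (2.07% and 5.44%). Without the 2 TGF-β libraries that held liver transcripts, 15 rose and 1 fell with si-IAMP-1, and 4 rose and 14 fell with si-IAMP-2. With any 1 of the 6 compared libraries left out, 15 to 19 rose with si-IAMP-1, and 14 to 16 fell with si-IAMP-2. Fewer libraries and liver transcripts cannot be told apart here. Of the proliferation list, 9 of 10 genes fell with each siRNA. Pericyte and smooth muscle markers summed to 26.7 CPM in si-NC, 19.4 in si-IAMP-1 and 13.4 in si-IAMP-2 with TGF-β, with 1 and 2 of 5 genes lower. Macrophage markers, led by Lyz2, summed to 152, 127 and 138, with 3 of 5 lower with si-IAMP-1, and 2 lower and 1 higher with si-IAMP-2. Sex-linked genes summed to 171, 179 and 198, with 1 of 4 tested genes higher with si-IAMP-1 and 2 with si-IAMP-2. The part of these markers in the lipid genes was not tested. Hmgcs1, Mvk, Mvd, Idi1, Fdft1, Sqle, Lss, Tm7sf2, Hsd17b7 and Dhcr7, which make sterols or their precursors, rose with si-IAMP-1 and fell with si-IAMP-2. Insig1, Scd1, Fads1 and Fads2 rose with both, and Srebf2 fell with both. Here too both comparisons share the si-NC libraries of the table, and the share of all genes called with both siRNAs was not counted.

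Among the regulators, Insig1 carried the largest rise. Insig1 stood at 24.6, 24.4 and 24.6 CPM in si-NC, 67.6, 70.0 and 69.0 in si-IAMP-1 and 90.0, 105 and 101 in si-IAMP-2. Every knockdown library lay above every control, by 1.48 ± 0.05 on the log2 scale with si-IAMP-1 (adjusted p = 5.762e-13) and 1.99 ± 0.05 with si-IAMP-2 (adjusted p = 8.429e-15). With IL-17 it stood at 20.4, 20.7 and 21.7, then 59.6, 55.0 and 53.6, then 80.3, 93.6 and 90.6, again without overlap (log2 1.41 and 2.05). With TGF-β, si-NC itself stood at 293, 298 and 283 CPM, si-IAMP-1 at 449, 458 and 435 and si-IAMP-2 at 367, 387 and 386. The rise was smaller there, at 0.62 and 0.38, and larger with si-IAMP-1 than with si-IAMP-2 (difference of si-IAMP-2 from si-IAMP-1 -0.24 ± 0.03, adjusted p = 7.405e-05).

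Srebf2, the SREBP gene tied most closely to sterol synthesis, fell slightly in all 6 comparisons. It stood at 169, 158 and 161 CPM in si-NC, 145, 147 and 145 in si-IAMP-1 and 133, 151 and 136 in si-IAMP-2. With IL-17 the levels were 165, 174 and 171, then 153, 147 and 143, then 143, 152 and 146, and with TGF-β 218, 212 and 214, then 196, 189.5 and 198, then 180.1, 183 and 182. No knockdown library overlapped the controls of its table, and the log2 changes lay between -0.14 and -0.24 (highest adjusted p = 0.003191). Srebf1, which drives mostly fatty acid genes, stood at 79.4, 80.8 and 88.2 CPM in si-NC, 81.1, 81.2 and 80.9 in si-IAMP-1 and 86.9, 95.4 and 88.5 in si-IAMP-2. In IL-17 cells it stood at 80.4, 84.1 and 78.2, then 81.4, 83.2 and 76.2, then 91.5, 87.8 and 88.8. It passed the test in 1 of 6 comparisons, si-IAMP-2 with IL-17 (0.12 ± 0.04, adjusted p = 0.01418), a call lost without the libraries with liver transcripts, which left 1 control library (0.08, adjusted p = 0.2914), and without si-NC with IL-17 replicate 1 (0.11, adjusted p = 0.06198) or 3 (0.09, 0.09343) or si-IAMP-2 with IL-17 replicate 1 (0.10, 0.07229). With TGF-β Srebf1 stood at 162, 158 and 173, 161, 154 and 158, and 165, 159 and 165, and the groups overlapped. Scap fell with si-IAMP-1 and IL-17 (-0.14 ± 0.04) and with si-IAMP-2 and TGF-β (-0.17 ± 0.04), and Insig2, the second INSIG, passed the test in none of the 6. Stard4, a carrier that moves cholesterol between membranes, stood at 36.5, 40.5 and 35.2 CPM in si-NC, 40.6, 39.2 and 42.7 in si-IAMP-1 and 38.1, 40.6 and 42.5 in si-IAMP-2, with overlap. With IL-17 it stood at 26.2, 26.1 and 29.0, then 31.4, 31.9 and 27.7, then 35.5, 36.1 and 35.5. The si-IAMP-2 libraries lay above the controls (0.38 ± 0.06, adjusted p = 3.381e-05), while the call with si-IAMP-1 (0.15 ± 0.06, adjusted p = 0.04624) was lost under most alternatives (adjusted p up to 0.195). With TGF-β it stood at 59.0, 64.5 and 62.2, then 84.1, 88.0 and 82.4, then 58.8, 65.5 and 63.5, and rose with si-IAMP-1 alone of the 2 siRNAs (0.46 ± 0.05, adjusted p = 2.007e-06).

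In the mevalonate arm, which runs from acetoacetyl-CoA to farnesyl diphosphate, 5 of 6 genes rose with si-IAMP-2 in untreated CFs, beside 24.4% of all genes, and 5 of 6 with IL-17, beside 25%. The sixth was Hmgcs1, which makes HMG-CoA. Hmgcs1 stood at 89.8, 94.7 and 87.4 CPM in si-NC, 47.0, 48.7 and 47.4 in si-IAMP-1 and 82.9, 91.8 and 85.6 in si-IAMP-2. Only the si-IAMP-1 libraries stood apart, lower by -0.93 ± 0.04 on the log2 scale (adjusted p = 2.896e-11). With IL-17 the levels were 82.0, 91.5 and 84.8, then 43.6, 43.7 and 42.5, then 78.9, 89.0 and 80.4, with a fall of the same order (-1.0 ± 0.05). With TGF-β they were 251, 276 and 252, then 286, 292 and 278, then 200.2, 223 and 205. There si-IAMP-1 lay above si-NC, by 0.14 ± 0.04 (adjusted p = 0.03005, and 0.12 to 0.14 but not called when any of 4 single libraries was left out, or, at 0.12, without the TGF-β libraries with liver transcripts), and si-IAMP-2 below it, by -0.31 ± 0.04 (adjusted p = 3.567e-05).

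Mvd, the decarboxylase that makes isopentenyl diphosphate, moved with the other siRNA. It stood at 10.4, 11.7 and 10.8 CPM in si-NC, 11.3, 11.1 and 11.0 in si-IAMP-1 and 25.9, 28.6 and 27.7 in si-IAMP-2. The si-IAMP-2 libraries lay far above the rest (1.30 ± 0.07, adjusted p = 3.975e-11), and si-IAMP-1 overlapped si-NC (0.01 ± 0.07). With IL-17 Mvd stood at 9.10, 10.2 and 9.33, then 9.11, 9.57 and 8.64, then 23.0, 25.4 and 26.5, again far above the rest with si-IAMP-2 (1.36 ± 0.07). With TGF-β it stood at 71.9, 65.0 and 70.2, then 91.1, 90.1 and 90.0, then 60.2, 59.7 and 60.9, higher with si-IAMP-1 (0.39 ± 0.04, adjusted p = 2.112e-06) and lower with si-IAMP-2 (-0.19 ± 0.04, adjusted p = 0.001585). Idi1, the isomerase of the next step, stood at 67.1, 70.1 and 66.0 CPM in si-NC, 70.0, 69.9 and 67.6 in si-IAMP-1 and 96.3, 102 and 102 in si-IAMP-2. It rose with si-IAMP-2 by 0.54 ± 0.04 (adjusted p = 1.909e-09), and si-IAMP-1 overlapped si-NC. With IL-17 its levels were 59.7, 66.2 and 64.1, then 60.8, 62.2 and 65.4, then 91.0, 99.0 and 95.4, and with TGF-β 122, 124 and 119, then 148, 146 and 139, then 99.9, 104 and 98.7. The TGF-β groups were in the order si-IAMP-1, si-NC, si-IAMP-2 with no overlap. Mvk (0.69 ± 0.06), Pmvk (0.34 ± 0.07), the kinases before Mvd, and Fdps (0.72 ± 0.04), the farnesyl diphosphate synthase, also rose with si-IAMP-2 in untreated CFs, and of these Fdps rose with si-IAMP-1 (0.36 ± 0.04).

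**Figure D2:**
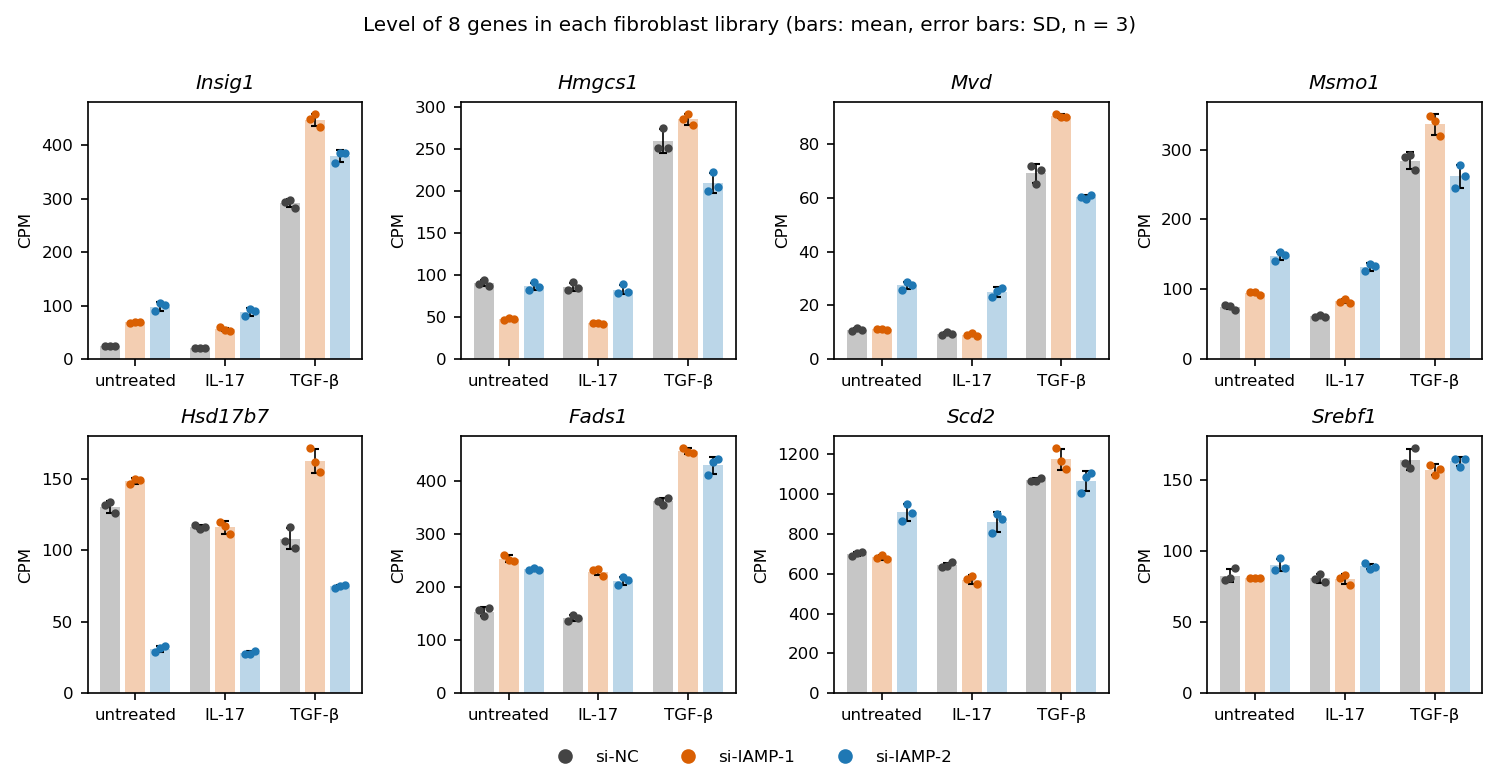
Level in CPM of 8 of the genes in each CF library by state and siRNA; bars are means, error bars SD and points the 3 libraries. Insig1 rises with both siRNAs, Hmgcs1 is low with si-IAMP-1 and Hsd17b7 with si-IAMP-2 in untreated and IL-17 cells, and every gene but Hsd17b7 is higher in the TGF-β table in each siRNA group.

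Of the 11 genes from squalene to sterol, 3 rose and 2 fell with si-IAMP-1 in untreated CFs, beside 19.5% and 20.4% of all genes, and 5 rose and 2 fell with si-IAMP-2, beside 24.4% and 25%. Hsd17b7, the ketosteroid reductase of sterol demethylation, carried the largest fall on the list. It stood at 132, 134 and 126 CPM in si-NC, 147, 150.3 and 149 in si-IAMP-1 and 28.8, 31.7 and 33.1 in si-IAMP-2. Hsd17b7 fell by 2.08 ± 0.04 on the log2 scale with si-IAMP-2 (adjusted p = 1.993e-15) and rose by 0.18 ± 0.04 with si-IAMP-1 (adjusted p = 0.002196). With IL-17 the levels were 118, 115 and 116, then 120.1, 117 and 111, then 27.3, 27.4 and 29.8, so that si-IAMP-1 overlapped the controls and si-IAMP-2 did not (-2.06 ± 0.04). With TGF-β they were 107, 116 and 102, then 172, 162 and 155, then 74.0, 75.0 and 75.7, higher with si-IAMP-1 (0.59 ± 0.05) and lower with si-IAMP-2 (-0.53 ± 0.05).

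Msmo1, the methylsterol oxidase that acts in the same demethylation, rose with both siRNAs in untreated and IL-17 cells. It stood at 77.1, 75.9 and 71.1 CPM in si-NC, 95.6, 96.8 and 92.5 in si-IAMP-1 and 141, 153 and 149 in si-IAMP-2. Both knockdown groups lay above si-NC, by 0.34 ± 0.04 (adjusted p = 1.766e-06) and 0.97 ± 0.04 (adjusted p = 2.071e-12). With IL-17 the levels were 60.7, 63.2 and 60.9, then 82.1, 86.3 and 80.7, then 126, 137 and 134, again with no overlap. With TGF-β they were 289.6, 292 and 271, then 348, 341 and 319, then 245, 278 and 262, and only the rise with si-IAMP-1 passed the test (0.24 ± 0.05, adjusted p = 0.0008653).

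Cyp51 stood at 149.8, 157 and 151 CPM in si-NC, 121, 127 and 123 in si-IAMP-1 and 131, 139.9 and 146 in si-IAMP-2. It fell with both, by 0.31 ± 0.04 (adjusted p = 5.389e-06) and 0.16 ± 0.04 (adjusted p = 0.002555) on the log2 scale. With IL-17 Cyp51 stood at 125, 137 and 133, then 113, 109 and 104, then 118, 133 and 126, and si-IAMP-2 overlapped the controls. With TGF-β it stood at 284, 281 and 279, then 282, 272 and 265, then 217, 235 and 223, and here only the fall with si-IAMP-2 passed the test (-0.32 ± 0.04, adjusted p = 2.521e-06). Sqle stood at 57.3, 58.7 and 59.9 CPM in si-NC, 52.7, 52.5 and 57.2 in si-IAMP-1 and 65.8, 77.3 and 70.7 in si-IAMP-2, the last above both others (0.26 ± 0.05, adjusted p = 0.0003819). Under IL-17 the gene stood at 45.7, 48.0 and 48.8, then 47.9, 46.1 and 45.7, then 62.4, 69.8 and 62.6. With TGF-β its order was si-IAMP-1 at 149, 147 and 143, si-NC at 136, 134 and 134 and si-IAMP-2 at 104, 117 and 105. The rise with si-IAMP-1 there (0.12 ± 0.04, adjusted p = 0.04438) was not called when any of the 6 libraries was left out, at 0.11 to 0.13. Tm7sf2 was the scarcest, at 4.87, 3.95 and 5.59 CPM in si-NC, 4.87, 5.22 and 5.61 in si-IAMP-1 and 4.51, 4.11 and 4.59 in si-IAMP-2, and at 4.17, 4.70 and 4.46, then 3.90, 4.61 and 5.81, then 3.82, 3.77 and 4.39 with IL-17. In both states each siRNA overlapped si-NC. In untreated CFs the si-IAMP-1 libraries lay above those of si-IAMP-2, but the edgeR test did not call this (si-IAMP-2 against si-IAMP-1 -0.26 ± 0.13, adjusted p = 0.1156). With TGF-β its levels were 20.0, 19.2 and 21.3, then 26.0, 28.9 and 26.3, then 15.1, 14.8 and 15.8, the 3 groups standing apart (0.42 ± 0.06 and -0.40 ± 0.06). Dhcr7 rose with both siRNAs in untreated CFs (0.46 ± 0.08 and 0.48 ± 0.08). Fdft1, the squalene synthase, rose there with si-IAMP-2 (0.23 ± 0.05), and Sc5d, a sterol desaturase, rose with si-IAMP-2 (0.14 ± 0.04) and fell with si-IAMP-1 (-0.11 ± 0.04). Nsdhl, Lss, which closes the sterol rings, and Ebp, a sterol isomerase, were not called in untreated CFs. With TGF-β, 8 of the 11 rose and 0 fell with si-IAMP-1, beside 11.7% and 11.4% of all genes, and 0 rose and 9 fell with si-IAMP-2, beside 15.1% and 14.8%.

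Among the 8 fatty acid genes, 3 rose and 1 fell with si-IAMP-1 in untreated CFs, 6 rose and 1 fell with si-IAMP-2, and with TGF-β 7 and 3 rose and 0 fell. The shares of all genes are those just given for the sterol genes. With IL-17, 2 rose and 4 fell with si-IAMP-1, beside 20.3% and 21.9% of all genes. With si-IAMP-2, 6 rose and 1 fell there, beside 25% and 25.6%. Fads1, the Δ5 desaturase, rose in all 6 comparisons. It stood at 157, 146 and 160.4 CPM in si-NC, 262, 252 and 249 in si-IAMP-1 and 232, 237 and 233 in si-IAMP-2, without overlap (0.71 ± 0.04 and 0.58 ± 0.04, adjusted p = 1.053e-10 and 5.119e-10). With IL-17 its levels were 137, 148 and 143, then 232, 236 and 222, then 204, 219 and 213. With TGF-β they were 364, 355 and 368, then 463, 456 and 454, then 413, 437 and 443, with smaller rises (0.34 and 0.25). Its neighbour Fads2 stood at 255, 249 and 261 CPM in si-NC, 276, 273 and 279.7 in si-IAMP-1 and 279.7, 297 and 298 in si-IAMP-2, all above the controls (0.11 and 0.17). With IL-17 Fads2 stood at 226, 242 and 245, then 259, 249 and 249, then 274, 286 and 283, and the rise with si-IAMP-1 did not pass the test (adjusted p = 0.07118). With TGF-β it stood at 449.9, 445 and 460.4, then 586, 599 and 582, then 549, 564 and 563, higher with both (0.38 ± 0.03 and 0.31 ± 0.03).

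Scd2 stood at 689, 703 and 706 CPM in si-NC, 679, 694 and 671 in si-IAMP-1 and 866, 951 and 902 in si-IAMP-2. The si-IAMP-2 libraries alone stood apart (0.35 ± 0.03, adjusted p = 5.716e-08). With IL-17 Scd2 stood at 635, 638 and 656, then 574, 589.8 and 546, then 802, 900.4 and 872, lower with si-IAMP-1 (-0.18 ± 0.04) and higher with si-IAMP-2 (0.40 ± 0.04). With TGF-β it stood at 1063, 1061 and 1080.3, then 1228, 1164 and 1126, then 1005, 1085 and 1102, and si-IAMP-2 overlapped the controls. Scd1 stood at 371, 364 and 354 CPM in si-NC, 382, 378 and 380.5 in si-IAMP-1 and 387, 425 and 409.7 in si-IAMP-2, and rose with si-IAMP-2 (0.15 ± 0.03, adjusted p = 0.0009396). With IL-17 it stood at 345, 345 and 349, then 358, 349 and 349, then 378, 406 and 391. With TGF-β the levels were 419, 437 and 427, then 594, 571 and 547, then 460.4, 489 and 498, higher with both siRNAs (0.42 ± 0.04 and 0.18 ± 0.04). Both desaturases had their highest mean with si-IAMP-2 in untreated cells and with si-IAMP-1 in the TGF-β table. The rise of Scd2 with si-IAMP-1 there (0.14 ± 0.04, adjusted p = 0.01871) was not called without si-IAMP-1 with TGF-β replicate 1 (0.10, adjusted p = 0.1185) or without the TGF-β libraries with liver transcripts (0.14, adjusted p = 0.0573).

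Fasn, the fatty acid synthase, overlapped between untreated groups, at 219.8, 229.6 and 201 CPM in si-NC, 202, 213 and 214 in si-IAMP-1 and 212, 227 and 203 in si-IAMP-2. In IL-17 cells it stood at 213, 212 and 216, then 207, 199.7 and 178, then 213, 216 and 217. The fall with si-IAMP-1 there (-0.14 ± 0.04, adjusted p = 0.007642) was -0.13 without the libraries with liver transcripts, where 1 control library was left and it did not pass the test (adjusted p = 0.1322), and -0.09, still called, without si-IAMP-1 with IL-17 replicate 3. With TGF-β Fasn stood at 370.2, 349.7 and 388, then 440.4, 400.0 and 409.6, then 360.4, 371 and 375, and rose with si-IAMP-1 (0.18 ± 0.04, adjusted p = 0.005404). Elovl6, which lengthens palmitate, was the member of this group that fell with si-IAMP-2. It stood at 33.9, 36.8 and 31.7 CPM in si-NC, 31.5, 31.4 and 30.1 in si-IAMP-1 and 22.6, 24.4 and 26.7 in si-IAMP-2 (-0.49 ± 0.07, adjusted p = 7.01e-06). With IL-17 it stood at 34.6, 34.3 and 35.5, then 29.0, 27.6 and 27.7, then 23.5, 24.2 and 24.3, lower with both. With TGF-β its levels were 52.3, 51.7 and 56.6, then 65.3, 62.8 and 60.5, then 41.6, 50.7 and 53.7, and the rise with si-IAMP-1 (0.23 ± 0.08, adjusted p = 0.04553) was not called when any of the 6 libraries was left out, at 0.20 to 0.27. Acaca, the acetyl-CoA carboxylase of the first committed step, rose with both siRNAs in untreated CFs (0.41 ± 0.05 and 0.48 ± 0.05), and Acly fell with si-IAMP-1 (-0.14 ± 0.03) and rose with si-IAMP-2 (0.54 ± 0.03).

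The siRNAs were also tested against each other, in fits that do not use si-NC as a reference. In untreated CFs 18 members were higher with si-IAMP-2 and 3 lower, beside 22.7% and 22.8% of all genes, and with IL-17 23 were higher and 3 lower, beside 23.1% and 23.1%. With TGF-β the count turned over: 0 were higher and 25 lower with si-IAMP-2, beside 12% and 12% of all genes, and all 6 genes of the mevalonate arm and all 11 from squalene to sterol were among the 25. The medians of the log2 difference were 0.14, 0.18 and -0.24. The target gene 4930523C07Rik was itself lower with si-IAMP-2 in all 3 tables (-0.72 ± 0.12, -0.58 ± 0.11 and -0.41 ± 0.11, adjusted p at most 0.008675). The part of this in the lipid genes was not tested. Hsd17b7 was lower with si-IAMP-2 in all 3 tables (-2.27, -2.05 and -1.12, adjusted p at most 9.593e-11). Mvd was higher by 1.29 ± 0.07 and 1.44 ± 0.07 in untreated and IL-17 cells and lower by -0.58 ± 0.04 with TGF-β (adjusted p = 2.956e-08). Hmgcs1 followed the same course, at 0.85, 0.93 and -0.45. The summed level of the 31 genes was 3629.8 to 3642.9 CPM in si-IAMP-1 and 4038.8 to 4377.5 in si-IAMP-2 when untreated, and 7358.7 to 7722.3 and 6174.3 to 6531.7 with TGF-β, against 6425.6 to 6501.1 in si-NC with TGF-β. Without the libraries with liver transcripts, 18 members were higher and 3 lower with si-IAMP-2 in untreated cells, 23 and 3 with IL-17, and 0 and 24 in the TGF-β table.

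The effect of each siRNA in stimulated cells was compared with its effect in untreated cells, in a joint fit of all 27 CF libraries over 22359 genes. For IL-17 no member passed an adjusted p of 0.05 with either siRNA in the main edgeR fit, while 2 and 4 members had an unadjusted p under 0.05. Of all genes, 0.76% were higher and 0.971% lower with si-IAMP-1, and 0.568% and 1.07% with si-IAMP-2. DESeq2 called 0 members with si-IAMP-1 and 1 with si-IAMP-2, Stard4. Its effect was higher by 0.30 on the log2 scale (adjusted p = 0.03961, against 0.0763 in the main edgeR fit). In edgeR Stard4 was also called with at least 10 counts in every library (adjusted p = 0.03775) and with estimated counts divided by 6 (adjusted p = 0.04159). An edgeR fit of the compared groups alone called Hsd17b7 with si-IAMP-1 (-0.20, adjusted p = 0.02724). With a difference of at least 1 on the log2 scale, 0 members passed in either direction, beside 0.085% and 0.085% of all genes with si-IAMP-1 and 0.0716% and 0.103% with si-IAMP-2. For TGF-β 15 effects of si-IAMP-1 were higher than in untreated cells and 4 lower, beside 9.2% and 10.3% of all genes, and 2 effects of si-IAMP-2 were higher and 21 lower, beside 14.2% and 15.3%. Without the libraries with liver transcripts these counts were 15 and 3, and 2 and 18, and those for IL-17 were again 0. At a difference of at least 1, Hmgcs1 with si-IAMP-1 was higher (1.06 ± 0.07, adjusted p = 2.997e-13), 1 member beside 1.43% of all genes, and 0 were lower beside 0.886%. With si-IAMP-2, Hsd17b7 was higher (1.53 ± 0.07), 1 beside 2.81%, and Insig1 (-1.62 ± 0.07), Mvd (-1.52 ± 0.08) and Msmo1 (-1.10 ± 0.06) were lower, 3 beside 2.13%. The knockdown was itself weaker with TGF-β in this edgeR fit. The effect on 4930523C07Rik was higher by 0.73 ± 0.15 with si-IAMP-1 (adjusted p = 0.0005411) and 1.02 ± 0.16 with si-IAMP-2 (adjusted p = 3.837e-06). The part of this in the lipid genes was not tested. IL-17 and TGF-β cells each form a table of their own, the TGF-β cells with another source label. Stimulus and table can therefore not be told apart in these differences.

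Against untreated cells with the same siRNA, IL-17 cells showed small falls. IL-17 cells also form a table of their own, so that IL-17 and the table cannot be told apart here. With si-NC 1 member was higher and 12 lower, beside 6.13% and 6.1% of all genes, with si-IAMP-1 1 and 13, beside 6.73% and 7.87%, and with si-IAMP-2 0 and 8, beside 5.83% and 6.65%. The medians were -0.10, -0.13 and -0.07, against -0.008, 0 and 0 over all genes. In si-NC Stard4 was lower by -0.47 ± 0.06, Sqle by -0.30 ± 0.05, Msmo1 by -0.28 ± 0.04 and Insig1 by -0.23 ± 0.05, and Insig2 was the 1 member higher (0.25 ± 0.05). The counts in si-NC and si-IAMP-2 moved with single libraries, while that in si-IAMP-1 ranged from 10 to 14 with single libraries left out. Without the libraries with liver transcripts the counts lower were 3 in si-NC, 16 in si-IAMP-1 and 6 in si-IAMP-2, but there si-NC with IL-17 was 1 library, taken to vary like the other groups, and fewer libraries and liver transcripts cannot be told apart. In si-NC the count lower was 7 without si-NC with IL-17 replicate 1. In si-IAMP-2 it was 1 without si-IAMP-2 with IL-17 replicate 1, 5 without replicate 3 of that group, 2 and 3 without untreated si-IAMP-2 replicate 2 or 3, and 5 in a fit of the compared groups alone. Without untreated si-IAMP-2 replicate 2, which had the highest summed level of the 31 genes in its group, 1 member was higher. The proliferation list had 0 calls with IL-17 against untreated cells in any siRNA group.

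The TGF-β table stood far above the untreated one. With si-NC 29 of 31 members were higher and 2 lower, beside 28% and 27.5% of all genes, with si-IAMP-1 30 and 1, beside 27.7% and 27.6%, and with si-IAMP-2 26 and 2, beside 27.8% and 27.7%. The medians were 0.99, 1.09 and 0.79 on the log2 scale, against 0.02, 0.05 and 0.06 over all genes. Sterol genes led in si-NC: Insig1 by 3.57 ± 0.05 (adjusted p = 5.389e-30), Mvd by 2.65 ± 0.06, Dhcr7 by 2.40 ± 0.07, Tm7sf2 by 2.07 ± 0.11, Msmo1 by 1.93 ± 0.05 and Nsdhl, a dehydrogenase of sterol demethylation, by 1.84 ± 0.05. The median was 1.48 in the mevalonate arm, 1.23 from squalene to sterol and 0.63 among fatty acid genes, with Srebf1 higher by 0.99 ± 0.04 and Scd1 by 0.24 ± 0.03. The 2 lower members were Insig2 (-0.32 ± 0.05) and Hsd17b7 (-0.27 ± 0.05). Hsd17b7 was higher by 1.26 ± 0.05 in si-IAMP-2, where its untreated level was lowest, and Idi1 was not called there (0.01 ± 0.04). In the same contrast all 10 proliferation genes were lower (median -1.80, summed level 317 CPM in si-NC with TGF-β), macrophage markers summed to 152 CPM against 56.0 untreated, fibroblast markers, led by Col1a1, to 14516 against 9193 although 4 of the 8 were lower and 3 higher (median -0.30), endothelial markers to 88.1 against 57.9 and pericyte and smooth muscle markers to 26.7 against 6.03. Sex-linked genes summed to 171 CPM against 249 untreated, with 3 of 5 lower. Mitochondrial genes held 3.36% to 3.67% of the counts in si-NC with TGF-β, against 2.52% to 2.63% untreated. The part of these lists and of this share in the lipid genes was not tested. Without the libraries with liver transcripts the counts were 29 and 2, 29 and 1, and 26 and 2. Since each state has its own table, TGF-β and the table cannot be told apart.

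**Figure D3:**
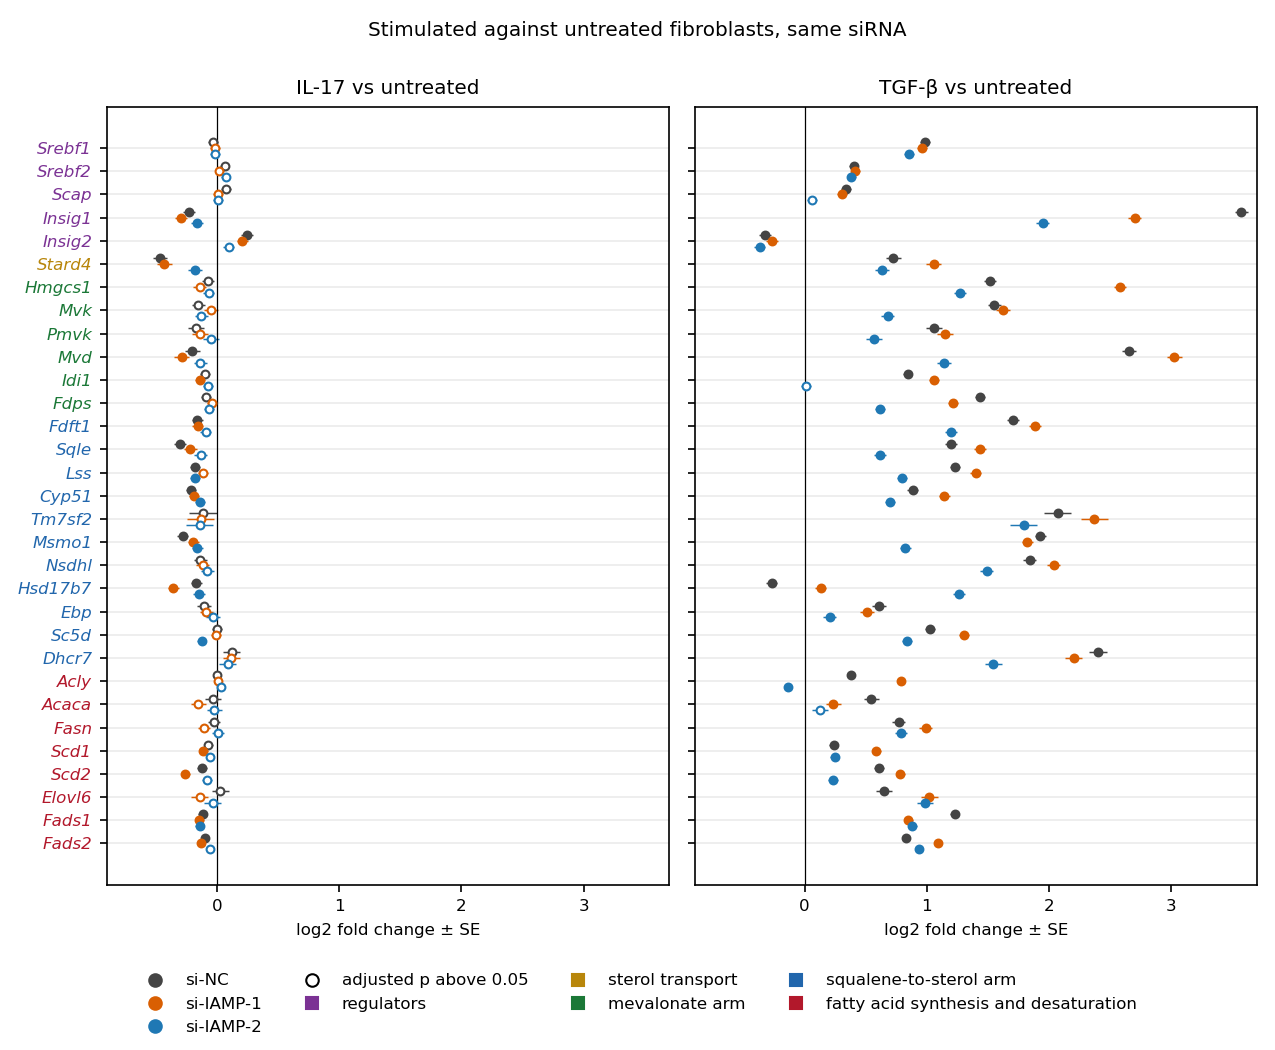
Log2 fold change (± SE) of each of the 31 genes for IL-17 (left) and TGF-β (right) against untreated CFs, within each siRNA; filled points have an adjusted p of at most 0.05. The IL-17 points lie near 0 and mostly left of it, while the TGF-β points reach 3.57 for Insig1 in si-NC and stand right of 0 apart from Insig2, Hsd17b7 in si-NC and Acly in si-IAMP-2.

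Related genes outside the 31, in 3 lists, were read beside them, as counts. Of all genes, 19.5% rose and 20.4% fell with si-IAMP-1 in untreated CFs, 24.4% and 25% with si-IAMP-2, and with TGF-β 11.7% and 11.4%, then 15.1% and 14.8%. Of 20 genes of sterol handling and LXR signalling, which senses oxysterols, 11 rose and 3 fell with si-IAMP-1 in untreated CFs, and 13 rose and 6 fell with si-IAMP-2. Ch25h, which makes 25-hydroxycholesterol, an oxysterol that holds SREBPs inactive, had a mean level of 73.0 ± 2.65 CPM in si-NC, 40.1 ± 2.02 in si-IAMP-1 and 178 ± 11.8 in si-IAMP-2 (SD, n = 3). It fell with si-IAMP-1 (-0.87 ± 0.05) and rose with si-IAMP-2 (1.26 ± 0.05), opposite calls from groups that did not overlap. Cyp7b1, which removes oxysterols, and Nr1h3, which encodes LXRα, rose with both (0.77 and 0.96, 0.70 and 0.88). Abca1, the cholesterol exporter, fell with both siRNAs in the IL-17 table (-0.37 ± 0.04 and -1.48 ± 0.04) and with TGF-β rose with si-IAMP-1 (0.58 ± 0.10) and fell with si-IAMP-2 (-0.49 ± 0.10).

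Of 13 genes of SREBP processing and turnover in the endoplasmic reticulum, 4 rose and 4 fell with si-IAMP-1 and 2 rose and 9 fell with si-IAMP-2. Mbtps1, the first protease that cleaves SREBPs, rose with both (0.63 ± 0.04 and 0.22 ± 0.04), Erlin1, a membrane protein of sterol-dependent degradation, fell with both (-0.33 ± 0.06 and -0.76 ± 0.06), and Erlin2 rose with si-IAMP-1 (0.70 ± 0.04) and fell with si-IAMP-2 (-0.17 ± 0.04). With TGF-β 5 and 8 of the 13 rose and 0 fell. Of 19 further lipogenic genes, 8 rose and 4 fell with si-IAMP-1 and 10 rose and 2 fell with si-IAMP-2. G6pdx and Pgd, which make the NADPH that both pathways consume, rose with both: G6pdx had a mean of 159 ± 0.594 CPM in si-NC, 228 ± 6.92 in si-IAMP-1 and 433 ± 6.14 in si-IAMP-2 (0.51 ± 0.03 and 1.42 ± 0.03), and Pgd rose by 0.22 ± 0.04 and 0.97 ± 0.04. Aacs, which activates acetoacetate for lipid synthesis, also rose with both (0.42 ± 0.05 and 1.01 ± 0.05), and Elovl5, an elongase of polyunsaturated fatty acids, fell with both (-0.17 ± 0.04 and -0.89 ± 0.04). With TGF-β G6pdx and Pgd rose with both siRNAs again (0.47 and 0.67, 0.45 and 0.64).

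In hearts no member was called. With KO against Het 0 of 31 were higher and 0 lower, beside 0% and 0% of 16675 genes, in edgeR, and DESeq2 also called 0 members. The lowest adjusted p of any gene was 0.279, and 601 genes (3.6%) had an unadjusted p under 0.05, 3 members among them. These were Elovl6 (0.76 ± 0.30), Mvk (-0.24 ± 0.11) and Srebf2 (0.13 ± 0.06), each with an adjusted p of 1 from edgeR. The median was 0.04 over the members and -0.001 over all genes.

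**Figure D4:**
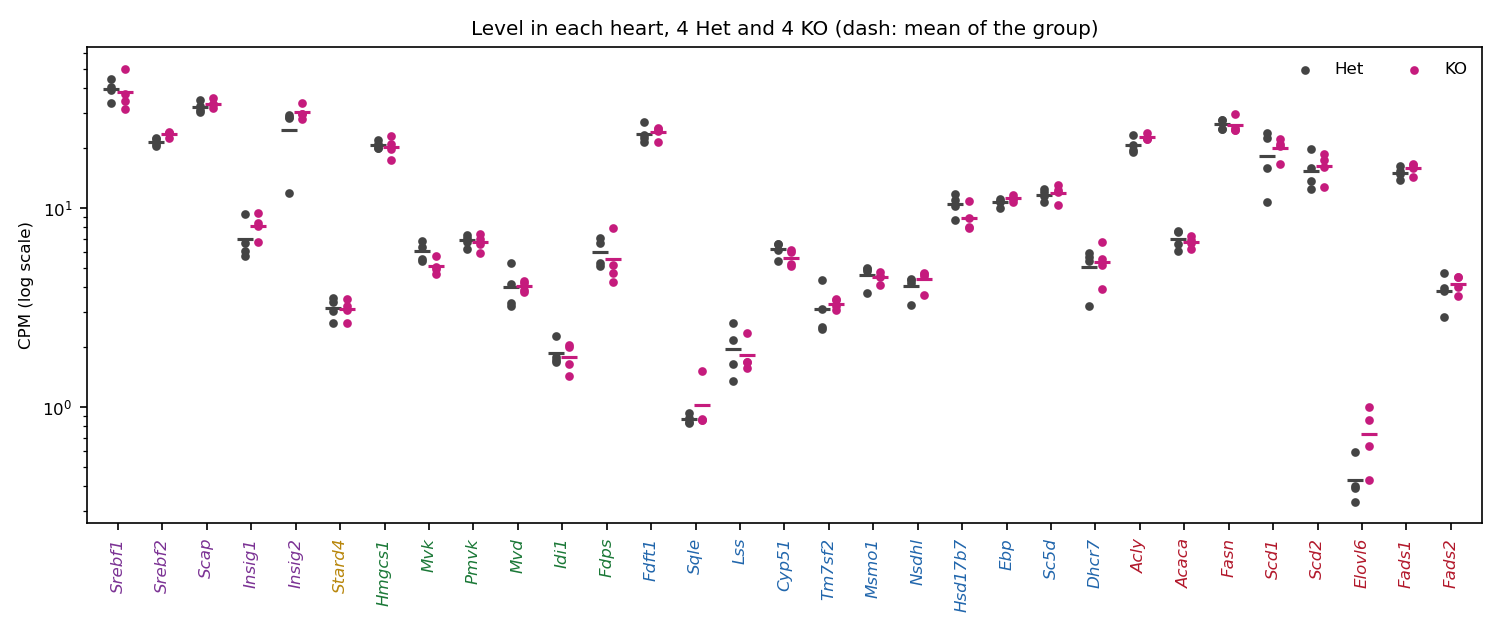
Level in CPM (log axis) of each of the 31 genes in 4 Het and 4 KO hearts; dashes are group means. Het and KO points overlap for every gene, 1 Het heart has a low Insig2, and Elovl6 and Sqle are lowest.

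Elovl6 stood at 0.335, 0.392, 0.594 and 0.401 CPM in Het and 1.00, 0.634, 0.863 and 0.431 in KO, which is 8 to 14 and 10 to 23 counts, and the groups overlapped. Srebf2 stood at 20.9, 20.5, 22.2 and 22.6 CPM in Het and 24.1, 23.9, 23.8 and 22.3 in KO, and 1 KO heart lay within the Het range. Insig1, the member that rose most with either siRNA in untreated CFs, stood at 9.29, 6.66, 6.11 and 5.73 in Het and 9.39, 8.36, 8.10 and 6.77 in KO (0.23 ± 0.16, adjusted p = 1). Of the other genes that moved in CFs, Hmgcs1 stood at 19.9, 21.0, 20.1 and 22.0 in Het and 20.9, 19.8, 17.3 and 22.9 in KO. Hsd17b7 stood at 11.0, 11.8, 10.2 and 8.74 and then 8.00, 7.90, 10.9 and 8.89, with overlap. Mvd stood at 5.28, 4.14, 3.22 and 3.33, then 4.22, 3.89, 4.27 and 3.80.

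The remaining named members also overlapped between genotypes. Among sterol genes, Stard4 stood at 2.64, 3.05, 3.52 and 3.37 CPM in Het and 2.65, 3.08, 3.21 and 3.49 in KO, and Idi1 at 1.72, 2.26, 1.78 and 1.68 and then 2.00, 1.65, 2.05 and 1.42. Sqle stood at 0.837, 0.827, 0.933 and 0.882, then 0.869, 1.52, 0.863 and 0.863, where 1 KO heart stood alone. Cyp51 stood at 5.44, 6.57, 6.15 and 6.61, then 6.17, 5.24, 6.00 and 5.13. Neither gene was called. Tm7sf2 stood at 3.10, 2.53, 2.46 and 4.33, then 3.48, 3.08, 3.21 and 3.45. Msmo1 stood at 4.81, 3.74, 5.01 and 4.93, then 4.48, 4.10, 4.77 and 4.57. In both the KO hearts lay within the Het range.

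Among the genes of fatty acids, Srebf1 stood at 44.4, 40.7, 33.8 and 39.1 CPM in Het and 37.2, 34.5, 50.1 and 31.4 in KO. Fasn stood at 27.7, 24.9, 25.0 and 27.6, then 25.2, 24.7, 29.8 and 24.7. Both spread more within a genotype than between the group means. Scd1 stood at 16.0, 10.7, 22.5 and 23.8, then 20.4, 21.0, 16.6 and 22.1, and Scd2 at 15.9, 12.4, 13.6 and 19.8, then 18.6, 16.0, 17.4 and 12.8. Fads1 stood at 16.2, 15.4, 13.7 and 14.9, then 14.4, 15.9, 16.5 and 16.6, and Fads2 at 3.98, 2.83, 3.82 and 4.69, then 4.52, 4.52, 4.03 and 3.62. None of these differences passed the test. The 8 adipocyte markers summed to 368 CPM in Het and 388 in KO, led by Fabp4, and the 31 members to 356.65 to 373.68 and 359.3 to 394.38. Of the companion lists 0 genes were called in hearts. Fibroblast markers summed to 687 CPM in Het and 700.1 in KO hearts, led by Dcn.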

How the data were processed

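Poly(A) RNA was sequenced from 27 CF and 8 heart libraries. Per the submitters' processing notes and the paper's methods, the authors trimmed reads with Cutadapt 3.7, checked them with FastQC 0.11.9, ran HISAT2 2.2.1 against GRCm38 and took abundances from StringTie 2.1.4. Strand setting, annotation release and the step to whole numbers are not given in the sources used here. The deposited CF values were read as estimated counts that the authors derived from StringTie coverage, since 6 was the most frequent value of genes seen in 1 library (21.92% of 3873 in the untreated table), and are whole numbers already. The deposited heart values were read as raw counts (1 in 57.12% of such genes). One read pair can therefore stand for several estimated counts, and intervals on them were not computed.

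R 4.3.3 and edgeR 4.0.16 were used: filterByExpr, TMM, a robust quasi-likelihood fit per table with all its groups, 1 joint fit of the CF tables for stimuli and interactions, and Benjamini-Hochberg over all genes tested. CPM come from the joint fit and the heart fit. The standard error is that of the fitted log2 fold change. Alternatives were DESeq2 1.42.0, RLE factors, no filter, at least 10 counts in every library, the study's fold thresholds, fits that hold the compared groups only, a replicate block, estimated counts divided by 6, each library left out, and, chosen after the marker levels were seen, CF libraries with hepatocyte markers under 10 CPM only. Scripts were tested on simulated data. The study's thresholds are stated for untreated and IL-17 cells, and 1.5-fold was applied to TGF-β. Every-library values are given for 18 members: 14 fixed by name and those among the 3 largest effects of a comparison. Members and lists were chosen with earlier results of these data known, and say nothing independent of them. Promoters are RefSeq's. Other assays of the study were not analysed here.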

Additional observations from a re-analysis of the deposited data

Results flagged for a closer look

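Single hearts stood apart from the other 3 of their genotype for 8 members, in 9 of 62 groups examined by the ratio of the outlying gap to the range (chance gives about 1 in 20). In Het these were Insig2 at 11.9 CPM against 28.4 to 29.3 (ratio 0.951), Idi1 at 2.26 against 1.68 to 1.78 (0.83), Msmo1 at 3.74 against 4.81 to 5.01 (0.848) and Nsdhl at 3.27 against 4.21 to 4.4 (0.833). The last 3 were 1 heart, and Insig2 was low in another. In KO they were Srebf2 at 22.3 against 23.8 to 24.1 (0.858), Sqle at 1.52 against 0.863 to 0.869 (0.99), Lss at 2.34 against 1.56 to 1.69 (0.84), Nsdhl at 3.67 against 4.56 to 4.69 (0.879) and Fasn at 29.8 against 24.7 to 25.2 (0.895). CF groups of 3 libraries were not examined this way.

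The siRNA effect differed between TGF-β and untreated CFs by at least 1 on the log2 scale for 5 pairs of gene and siRNA, in the joint edgeR fit: Hmgcs1 with si-IAMP-1 (1.06), and Insig1 (-1.62), Mvd (-1.52), Msmo1 (-1.1) and Hsd17b7 (1.53) with si-IAMP-2. TGF-β and its table cannot be told apart in these values. The effect on the target gene 4930523C07Rik also differed, by 0.73 with si-IAMP-1 and 1.02 with si-IAMP-2, the knockdown being weaker with TGF-β.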

How the results depend on the processing

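Of 776 counts of members under alternatives, 747 stayed within 1.5 times the reported count and 29 moved. Of 1022 values of called genes, 986 kept direction and call, 36 lost the call and 0 reversed. Of 705 values of the same genes in comparisons where they were not called, 627 stayed uncalled in the same direction, 27 gained a call and 51 changed sign. The study's fold thresholds left 1 higher and 0 lower for si-IAMP-1 untreated, 2 and 1 for si-IAMP-2 untreated, 2 and 1 for si-IAMP-1 with IL-17, 5 and 1 for si-IAMP-2 with IL-17, 2 and 0 for si-IAMP-1 with TGF-β and 0 and 0 for si-IAMP-2 with TGF-β. The count lower with IL-17 against untreated was 5 in si-IAMP-2 with the compared groups alone, and 3 in si-NC without libraries with liver transcripts, which left 1 IL-17 control. With single libraries left out, it ranged from 1 to 9 in si-IAMP-2 (0 to 1 higher) and from 7 to 13 in si-NC, and the count lower for si-IAMP-2 against si-NC with IL-17 from 3 to 5. The difference of the si-IAMP-2 effect with IL-17 from untreated had 1 member higher (Stard4) in place of 0 in DESeq2, with at least 10 counts in every library and with estimated counts divided by 6, and 0 to 1 with single libraries left out. In fits of the compared groups alone, that of si-IAMP-1 had 1 lower (Hsd17b7) in place of 0, and that of si-IAMP-2 with TGF-β had 1 higher in place of 2. In each case the cause was not tested. Same-numbered CF libraries did not deviate together (correlations from -0.0259 to 0.0219 untreated, -0.0652 to 0.00273 with IL-17, -0.0645 to 0.0281 with TGF-β, and -0.187 to 0.279 over 108 pairs of the joint fit with a median of -0.000416), so the numbers were not taken as pairs, and the replicate block moved no count by over 1.5 times. Stard4 with si-IAMP-1 and IL-17 had an adjusted p of 0.07204 under the block. No paired analysis was possible for hearts because the columns carry no number shared between genotypes. In hearts the depth limits genes under 1 CPM, such as Elovl6 with 8 to 23 counts.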
